A study of Arabidopsis thaliana with 26 samples.

Results

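The 98 Arabidopsis genes described here were those whose transcript level was lower with abscisic acid (ABA) in all 4 settings of a rule. The rule took 4 differences of mean log2 level: ABA minus the ethanol control at 3 h, the same at 24 h, the 4 arrays with ABA and a second hormone minus the 4 arrays with salicylic acid (SA) or methyl jasmonate (JA) at 3 h, and ABA+SA minus SA at 24 h. The 100 probe sets with the lowest value of their largest difference were taken, of 13436 that matched 1 annotated gene and 22746 on the array. Of 3 genes that the rule sets aside, AT5G64100 and AT5G17820 lay inside the 100 and were left out, and AT1G68670 lay outside it. Since these 4 differences chose the genes, they are given as a description and carry no test. The contrast of ABA+JA with JA at 24 h used 4 arrays on which the rule did not draw, and it is the only comparison in which the 98 genes were tested.

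The study treated T87 cells, an undifferentiated Arabidopsis suspension line, and measured RNA on 26 single-channel oligonucleotide arrays. The ABA-containing groups received 25 µM ABA alone (3 arrays at each time), ABA with 300 µM SA, or ABA with 100 µM JA (2 arrays each at each time). The groups without ABA received SA, JA or the 0.6% ethanol solvent (2 arrays each at each time). All groups were cells of this 1 line, sampled after 3 h or 24 h. Levels are log2 signals made by the authors with RMA, so a difference of 1 is 2-fold, and levels are compared within a gene and not between genes.

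ABA is the hormone that plants make under drought, salt and during seed maturation. Its receptors bind and inhibit protein phosphatases, which frees protein kinases that activate bZIP transcription factors, and genes of water-deficit protection are then transcribed. Many growth-related genes are lowered in the same response. SA and jasmonates are hormones of defence against pathogens and herbivores, and each can act against ABA responses. Probe sets for the ABA receptors, phosphatases, kinases and bZIP factors on the lists drawn up were not matched to a gene and are not analysed here.

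Several arrays limit what follows. For 4 arrays with combined hormones at 3 h the title and the source name disagree on the second hormone. JRG21, a jasmonate-regulated gene, had 10.43 and 11.31 on the arrays whose source name is ABA+SA at 3 h and 3.06 and 2.94 on those whose source name is ABA+JA, against 11.98 and 11.16 with JA. The arrays with high JRG21 are titled ABA+JA and those with low JRG21 are titled ABA+SA, so this gene went with the titles. These 4 arrays are therefore called combined-hormone arrays, and the rule pooled them. Where they are split, in group levels, figures and the model of group means, the source names are used, against which JRG21 goes. Replicates 2 and 3 of ABA at 3 h differed by an SD of 0.158 over all probe sets, against 0.343 to 0.735 for the other replicate pairs. They were counted as 1 array in any mean ± SD. In the differences of the rule and in the main model behind the calls they were kept as separate arrays. Replicate 1 of ABA+JA at 24 h differed from replicate 1 of JA at 24 h by an SD of only 0.259 (r = 0.993), the closest of 140 pairs of arrays from different groups at 1 time and closer than any replicate pair except ABA 3 h replicates 2 and 3. Of 3 genes that ABA alone raised, AT3G02480 was lower on that array than on either JA array, and the other two were higher by less than 1 log2 unit than the mean of the JA arrays. AT3G02480 had 2.92 on that array and 7.62 on the other ABA+JA array at 24 h, against 3.35 and 3.98 with JA, while ABA alone at 24 h gave 11.79 to 12.74. LTI30, a dehydrin, had 3.87 and 6.48 with ABA+JA, against 3.17 and 2.87 with JA, and ABA+SA at 24 h gave 5.54 and 3.6, against 3.36 and 3.30 with SA. LEA4-5, a late embryogenesis abundant protein gene, had 4.09 and 4.51 with ABA+JA, against 3.29 and 3.51 with JA, while ABA alone at 24 h gave 8.87 or more. LEA4-5 thus separated the ABA+JA arrays little, and low LTI30 was not particular to ABA+JA replicate 1. These genes were chosen after their values were seen. Results of the test for ABA+JA at 24 h are given with and without that array. The 2 JA arrays at 24 h were the replicate pair furthest apart, with an SD of 0.735 (r = 0.946). Arrays were also placed on a scale from SA at 3 h (-0.027 and 0.027) to SA at 24 h (0.964 and 1.04). At 24 h, JA replicate 1 stood at 0.083 and replicate 2 at 0.658, and ABA+JA replicate 1 at 0.1 and replicate 2 at 0.326. What set these arrays apart was not tested. Most markers of differentiated cells had no matched probe set, among them all those of xylem, phloem, trichome and seed, so these types were not checked. Of the markers with a matched probe set, PSAN, a photosystem I subunit, had a median of 9.20 over the arrays. The root hair gene EXPA7, the guard cell gene FMA and the pollen gene AT5G45880 had medians between 3.39 and 3.61, near the 25th percentile of all values (3.32).

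Across the 4 differences of the rule the 98 genes had medians of -1.63 (ABA minus control, 3 h), -1.83 (ABA minus control, 24 h), -1.46 (combined-hormone arrays minus SA and JA, 3 h) and -1.39 (ABA+SA minus SA, 24 h). The corresponding medians of the 13436 matched probe sets lay between -0.03 and 0.04. Every ABA array lay below every control array for 84 genes at 3 h (25.1% of all probe sets) and for 81 at 24 h (27.6%). The same held for 66 genes for the combined-hormone arrays at 3 h (15.2%) and for 83 for ABA+SA against SA at 24 h (23%). The rule selected on these contrasts, so these counts are not evidence about the genes. In bulk RNA, fewer cells of one kind and less RNA per cell cannot be told apart.

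**Figure D1:**
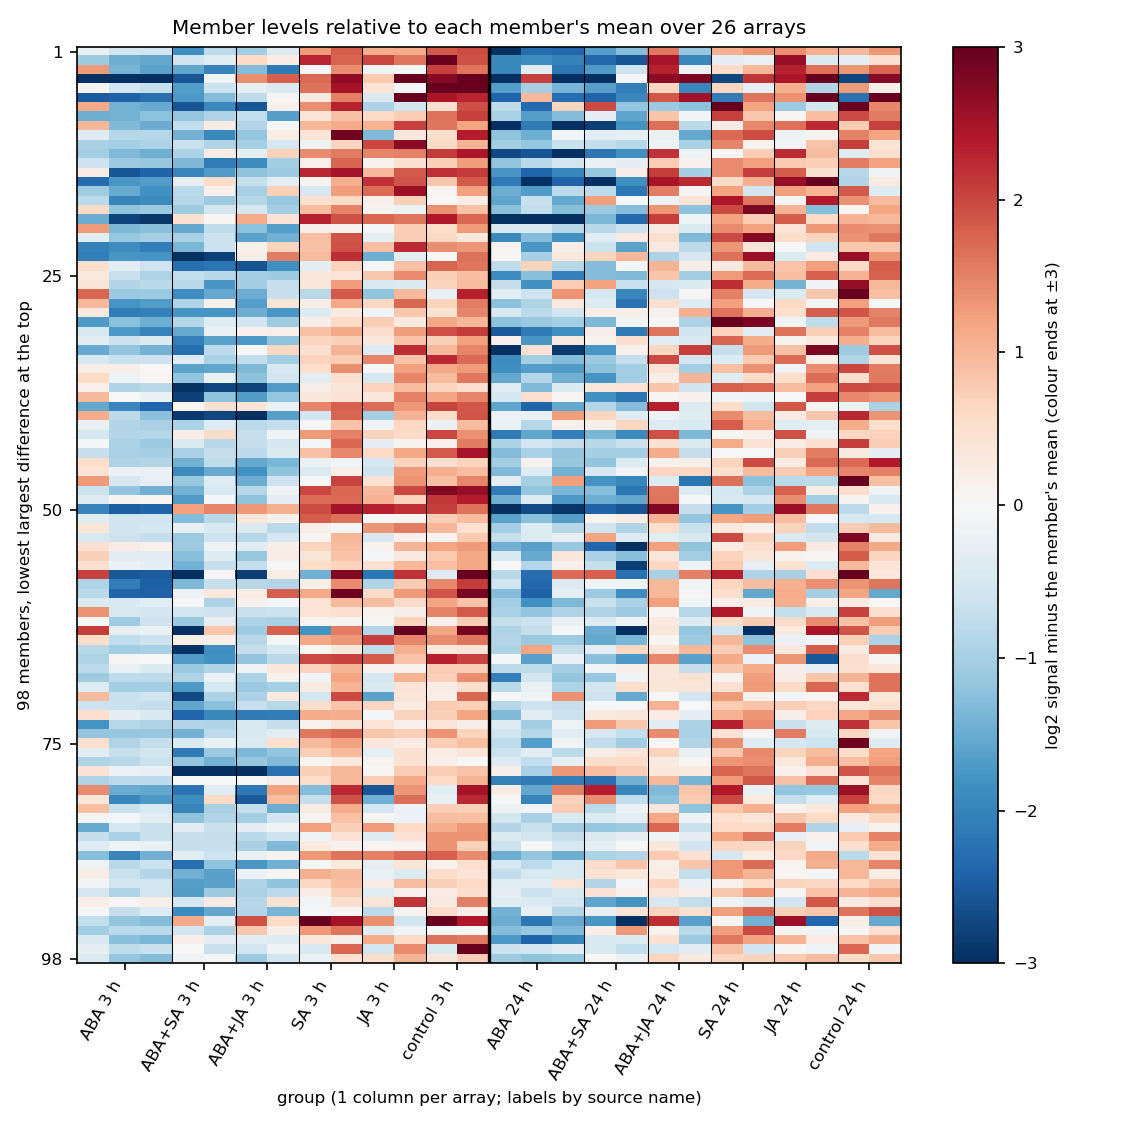
Level of the 98 genes (rows, lowest largest difference at the top) on each of the 26 arrays (columns, by group and source name), as log2 signal minus the gene's mean over the 26 arrays. Blue is below and red above that mean. The arrays with ABA are mostly blue because the rule selected on 12 of them; of the ABA+JA arrays at 24 h, replicate 1 (left) is mostly red and replicate 2 mostly pale or blue.

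The largest of the 4 differences, the one that set a gene's rank, was ABA+SA minus SA at 24 h for 38 genes, the combined-hormone difference at 3 h for 28, ABA at 3 h for 20 and ABA at 24 h for 12. It ran from -2.33 for PRX71 to -0.74 for AT5G63940. The last genes inside, AT1G72060, AT5G38340, AT1G49310, AT1G71450 and AT5G63940, had values of -0.75 to -0.74. The first outside, AT3G17160, AT4G36500, AT4G26555, AT1G54460 and AT3G22800, had -0.72 to -0.70, so the edge of the set falls within a continuous range. Leaving out 1 array of the rule at a time kept 82 to 96 of the 98 genes, and 42 were kept in every such run.

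By group, the ABA-containing arrays lay lowest. At 3 h the median level of the 98 genes was 5.66 with ABA. It was 5.07 on the arrays whose source name is ABA+SA (titled ABA+JA) and 5.57 on those whose source name is ABA+JA (titled ABA+SA). Without ABA it was 7.29 with SA, 6.74 with JA and 7.46 with ethanol. At 24 h it was 5.21 with ABA and 5.72 with ABA+SA, against 7.25 with SA and 7.40 with ethanol. ABA+JA at 24 h stood at 6.53, nearer to JA (6.97) than the other ABA groups were to their references. After centring each gene, ABA+JA replicate 1 at 24 h had a member median of 0.47 and replicate 2 one of -0.43, against 0.57 and 0.55 for the JA arrays. The other 12 ABA-containing arrays ran from -1.23 to -0.35 and the other arrays without ABA from 0.11 to 1.34. For 12 genes all 12 ABA-containing arrays of the rule lay below all 10 arrays of the rule without ABA, which 62 of all probe sets did (0.273%). They are PRX71, UGT72E1, AT1G51820, AT3G07000, AT1G14210, AT5G48430, AT3G04210, AT1G16640, AT5G07360, AT2G31810, AT5G20400 and AT5G66770.

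**Figure D2:**
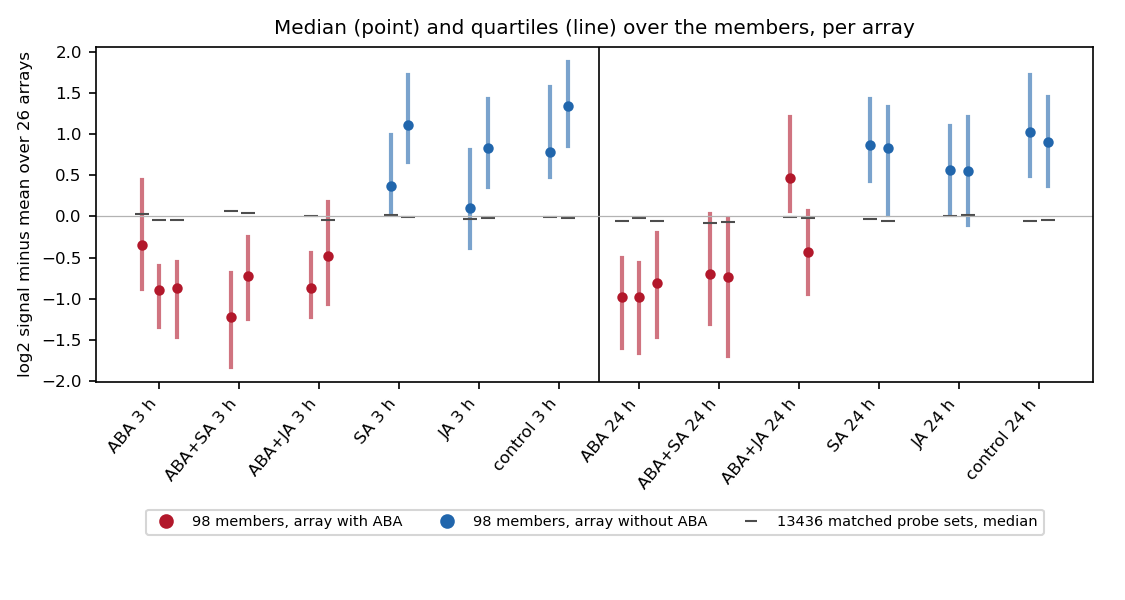
Log2 signal minus the gene's mean over the 26 arrays, per array and group (named by source name). Points are medians over the 98 genes, vertical lines run between the quartiles, and grey dashes are medians of the matched probe sets. ABA+JA replicate 1 at 24 h (0.47) stands among the arrays without ABA, and replicate 2 (-0.43) among those with it.

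The differences without ABA were smaller in the median than those of the rule, which chose genes for large ABA differences. SA minus control had a median of -0.34 at 3 h (72 genes lower) and -0.16 at 24 h (63 lower). Over the matched probe sets these medians were 0.01 and 0.0023, with 48.2% and 49.4% lower. JA minus control had -0.65 at 3 h (80 lower) and -0.40 at 24 h (62 lower), against -0.03 and 0.06 over the matched probe sets, of which 54.5% and 43.4% were lower. Control at 24 h minus control at 3 h had a median of 0.04, with 48 genes lower and 50 higher, against -0.05 and 55.7% lower over the matched probe sets. These share arrays with the rule and are not tested. With ABA alone 18 genes were lower by at least 1 log2 unit more at 3 h than at 24 h, 16 the other way round, and 64 differed by less than that between the times. AT2G04460 was the extreme, with ABA minus control of -7.32 at 3 h and -2.35 at 24 h. Its replicates at 24 h were far apart, at 3.80, 10.46 and 3.88 with ABA, against 5.66 and 11.14 with ethanol. AT2G19970 went the other way, with -1.99 at 3 h and -4.57 at 24 h.

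By rank, the first 15 genes were led by PRX71, with WRKY53 and UGT72E1 among them, and the other 12 have no name in the annotation. Means here are over 3 ABA arrays at 24 h, 2 control arrays and 2 ABA values at 3 h. AT2G37130 had 9.29 ± 0.25 (SD, n = 2) with ABA at 3 h, against 12.77 ± 0.22 (n = 2) with ethanol. At 24 h it had 7.71 ± 0.27 (n = 3) with ABA, against 10.59 ± 0.63 (n = 2) with ethanol. AT3G59480 had 5.70 ± 0.50 with ABA at 3 h, against 9.33 ± 0.20 with ethanol, and 4.63 ± 0.33 with ABA at 24 h, against 6.69 ± 0.79 with ethanol. In both genes the gap was wider than the spread between arrays at both times.

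AT3G23880 had 4.07 ± 0.31 with ABA at 3 h, against 7.79 ± 0.77 with ethanol, and 3.41 ± 0.08 with ABA at 24 h, against 5.45 ± 0.53 with ethanol. AT5G26280 had 4.62 ± 0.43 with ABA at 3 h, against 7.97 ± 0.71 with ethanol, and 3.96 ± 0.69 with ABA at 24 h, against 6.32 ± 0.82 with ethanol. AT3G07000 had 5.03 ± 0.34 with ABA at 3 h, against 6.89 ± 0.37 with ethanol, and 5.06 ± 0.32 with ABA at 24 h, against 7.28 ± 0.22 with ethanol. These 3 also had no overlap between ABA and ethanol arrays at either time. AT1G51820 had low signals with ABA, at 2.62, 2.58 and 2.68 at 3 h, against 4.16 and 4.62 with ethanol, and at 2.58, 2.43 and 2.94 at 24 h, against 5.67 and 3.98 with ethanol. Its ABA levels lay under the 25th percentile of all values. In all, 8 genes at 3 h and 7 at 24 h had ABA means under that percentile, against 0 with ethanol at either time.

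The remaining genes of the first 15 had at least 1 array apart from its replicates. AT1G62770 had 7.90, 5.23 and 5.03 with ABA at 3 h, against 8.68 and 8.24 with ethanol. AT1G33790 had 6.57, 3.76 and 3.91 with ABA at 3 h, against 8.50 and 8.42 with ethanol. AT2G19970 had 8.27, 5.95 and 5.78 with ABA at 3 h, against 8.87 and 8.45 with ethanol. In these 3 genes replicate 1 of ABA at 3 h lay nearest to the ethanol arrays, though below them, and over the 98 genes its centred median was -0.35, against -0.89 and -0.87 for replicates 2 and 3. AT5G43040 had 6.12, 5.67 and 5.66 with ABA at 3 h, against 7.05 and 8.88 with ethanol. AT5G20790 had 2.53, 2.61 and 2.78 with ABA at 3 h, against 7.49 and 7.32 with ethanol, but at 24 h it had 2.65, 5.99 and 2.75 with ABA, against 2.79 and 8.52 with ethanol. Like AT2G04460 above, it was well separated at 3 h and overlapped at 24 h, where replicate 2 of each group was the high one.

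The reference annotation names 16 of the 98 genes, and 82 are listed by locus number only and are given no function here. The matching left 9310 of 22746 probe sets outside the rule. Some lists lost most of their genes in it: of 23 nitrate and ammonium genes 1 had a matched probe set. The share of named genes thus describes the matched probe sets, and not all genes that ABA lowered. PRX71, UGT72E1, CSLC4 and LCR69 act in the cell wall or apoplast or on its precursors. PRX71 (AT5G64120), a class III peroxidase of the cell wall, had 10.85, 10.53 and 10.50 with ABA at 3 h, against 12.90 and 13.03 with ethanol. At 24 h it had 7.41, 8.75 and 8.70 with ABA, against 12.03 and 12.38 with ethanol. The groups did not overlap at either time, and the gap at 24 h was -3.92. The combined-hormone arrays at 3 h had 9.23, 10.29, 10.03 and 10.66, against 12.35, 12.88, 12.16 and 12.19 with SA or JA, and ABA+SA at 24 h had 9.41 and 9.79, against 12.13 and 12.40 with SA. With ABA+JA at 24 h it had 12.66 on replicate 1 and 9.94 on replicate 2, against 12.46 and 12.17 with JA. Thus replicate 1 lay above both JA arrays and replicate 2 below both.

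UGT72E1 (AT3G50740), a glucosyltransferase that conjugates precursors of lignin, had 3.54, 3.59 and 3.78 with ABA at 3 h, against 6.64 and 7.08 with ethanol. At 24 h it had 4.04, 3.36 and 3.72 with ABA, against 7.0 and 6.58 with ethanol. Its levels on all 12 ABA-containing arrays of the rule were 3.36 to 4.74, and without ABA 5.40 to 7.08, with no overlap. It had 5.84 and 4.93 with ABA+JA at 24 h, against 5.04 and 5.92 with JA, so those groups overlapped. CSLC4 (AT3G28180), which makes the glucan backbone of xyloglucan, gave -1.07, -0.88, -1.13 and -1.77 in the 4 differences of the rule, taken in the order ABA at 3 h, ABA at 24 h, combined hormones at 3 h and ABA+SA at 24 h. LCR69 (AT2G02100), a plant defensin secreted to the apoplast, gave -1.48, -1.88, -0.95 and -0.92 in that order. Its ABA arrays at 3 h had 10.24, 7.93 and 7.98, against 9.36 and 11.03 with ethanol, so the groups overlapped and its profile was the least like that of the set (r = 0.49).

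WRKY53, MYBC1 and TINY encode transcription factors. WRKY53 (AT4G23810), a WRKY factor that promotes leaf senescence and acts in defence, had 8.44, 5.88 and 5.78 with ABA at 3 h, against 7.81 and 9.23 with ethanol, and the groups overlapped. At 24 h it had 6.55, 4.97 and 7.94 with ABA, against 11.04 and 8.74 with ethanol, without overlap. It had 9.29 and 6.14 with ABA+SA at 24 h, against 10.57 and 8.52 with SA, and these groups overlapped. MYBC1 (AT2G40970), a MYB-like factor that limits freezing tolerance, gave -2.57, -1.14, -1.72 and -1.10 in the 4 differences in the same order. TINY (AT5G25810, listed as tny), an AP2/ERF factor, gave -0.97, -1.61, -1.24 and -0.99. It was not caught by the words that define the AP2/ERF list, and AP2/ERF genes listed by locus number only can be missed in the same way.

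HIRD11 (AT1G54410) encodes a dehydrin, a family of hydrophilic proteins that also includes genes raised by ABA. It had 7.61, 7.75 and 7.55 with ABA at 3 h, against 11.02 and 10.96 with ethanol. At 24 h it had 9.70, 7.87 and 9.83 with ABA, against 10.44 and 10.43 with ethanol. The groups did not overlap at either time, and the difference was -3.35 at 3 h and -1.30 at 24 h. The dehydrin LTI30 went the other way in the same arrays, at 12.09, 12.79 and 12.82 with ABA at 3 h, against 3.26 and 3.33 with ethanol.

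The other named genes fall in metabolism, the cytoskeleton and chromatin. SUFE2 (AT1G67810), an activator of cysteine desulfurase in iron-sulfur cluster assembly, gave -1.68, -2.42, -1.48 and -1.41 in the same order of differences. ALN (AT4G04955), the allantoinase of purine breakdown, gave -1.09, -2.34, -1.09 and -1.50. VTC4 (AT3G02870), a phosphatase of ascorbate synthesis, gave -1.31, -1.14, -1.67 and -0.92. ALN and SUFE2 were lower by more at 24 h than at 3 h with ABA, and VTC4 by slightly less. CPI1 (AT5G50375), an isomerase of sterol synthesis, gave -0.83, -1.46, -1.90 and -0.86. SCPL34 (AT5G23210), a serine carboxypeptidase-like protein, gave -2.43, -2.57, -1.02 and -1.75. Of the cytoskeleton genes, TUB5 (AT1G20010), a beta-tubulin, gave -3.58, -2.59, -1.32 and -0.93. MAP65-6 (AT2G01910), a microtubule-associated protein, gave -1.03, -2.05, -2.83 and -0.86. HON4 (AT3G18035), a protein with a linker histone domain, gave -1.05, -1.11, -1.13 and -0.80.

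**Figure D3:**
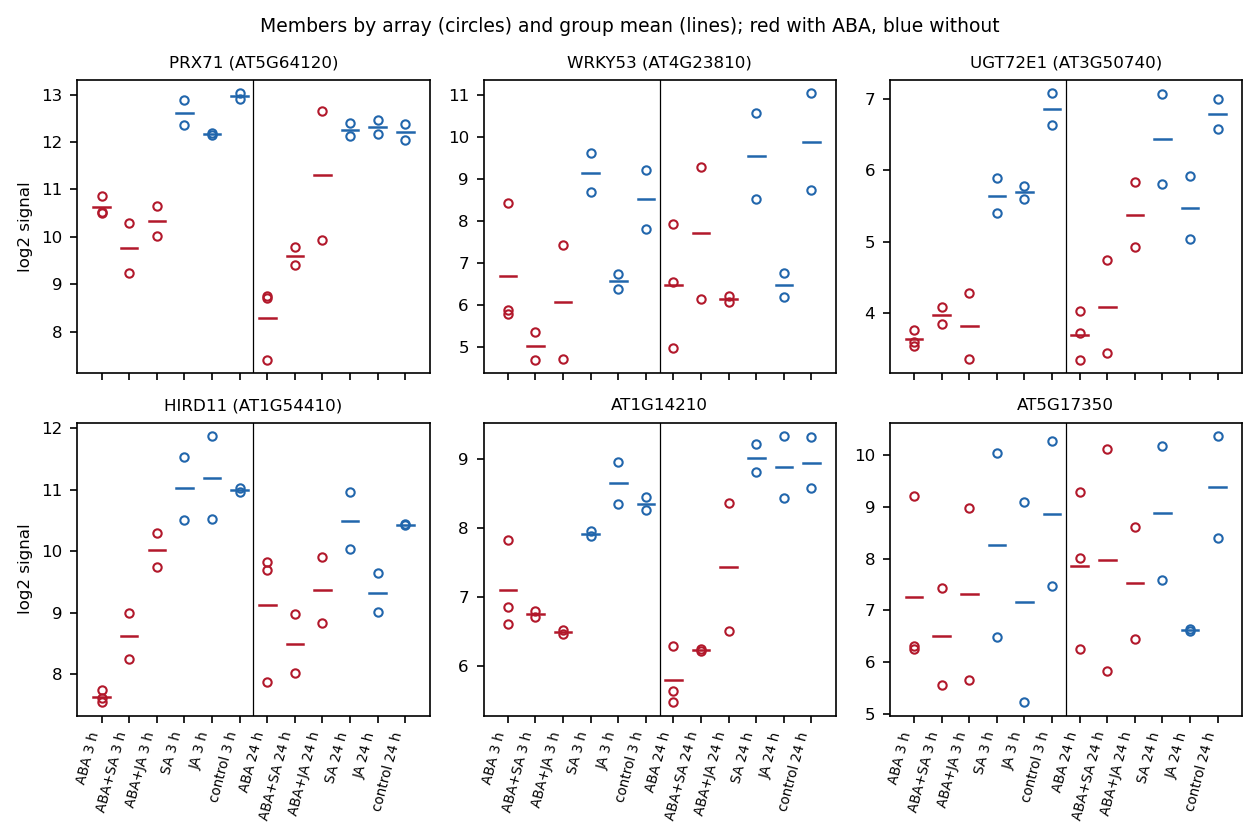
Log2 signal of 6 of the genes on each array (circles) and the mean of each group's arrays (lines), with ABA-containing groups in red, the others in blue, and groups named by source name. PRX71, UGT72E1 and AT1G14210 show no overlap between the ABA-containing and the other arrays of the rule, while for AT5G17350 the groups overlap in each of the comparisons.

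Some genes without a name had the same pattern. AT1G14210 had 5.65, 6.29 and 5.48 with ABA at 24 h, against 8.58 and 9.31 with ethanol, and 6.25 and 6.22 with ABA+SA, against 8.81 and 9.22 with SA. AT3G15630, on the list of sugar-starvation and dark-induced genes, had 5.20, 3.39 and 4.66 with ABA at 24 h, against 9.21 and 9.13 with ethanol. Its differences were -4.47, -4.75, -1.37 and -2.83 in the order above, and its ABA minus control at 24 h was the lowest of the 98. Pairs of the genes adjoin one another in the genome with no gene between them (AT2G44370 with AT2G44380, and AT3G06990 with AT3G07000), and AT1G33760 with AT1G33790 and AT3G15630 with AT3G15650 have 2 genes between them. The adjoining pair AT2G44370 and AT2G44380 had combined-hormone differences at 3 h of -4.21 and -3.05, but ABA at 3 h of -0.81 and -2.47. By chromosome, the genes number 26, 19, 21, 7 and 25 on chromosomes 1 to 5, of 3411, 2169, 2720, 1935 and 2982 matched genes.

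Of 35 lists drawn up, 25 had a matched gene and 7 held 1 of the genes each. Lists defined by words in gene names can miss genes listed by locus number only, as 82 of the set are. For such lists the counts do not show how many genes of the set belong to a family. Lists drawn up by locus hold only the genes with a matched probe set and miss the others. Calls of list genes come from the limma model at adjusted p under 0.05. Over all probe sets it called 10.3% lower and 7.82% higher with ABA at 3 h, and 11.3% lower and 7.04% higher with ABA at 24 h. It called 15.8% lower and 11.7% higher with the combined hormones at 3 h, and 1.52% lower and 1.19% higher with ABA+SA against SA at 24 h. In the sugar-starvation list (4 matched genes) 3 were called lower with ABA at 3 h and 1 at 24 h, 2 with the combined hormones and 1 with ABA+SA, and AT3G15630 is the one in the set. In the cell cycle and cytokinesis list (15 matched) 2 were called lower and 3 higher with ABA at 3 h, 9 lower and 1 higher at 24 h, 2 lower and 2 higher with the combined hormones, and 6 lower with ABA+SA against SA at 24 h. HON4 is the one in the set. It met the words of that list, though it is described above by its linker histone domain, while TUB5 and MAP65-6 did not meet them. With so few genes a list, these counts are set beside the shares over all probe sets without a test. Among 7 matched WRKY genes 2 were called lower with ABA at 3 h, 3 lower and 1 higher at 24 h, and 4 lower and 2 higher with the combined hormones, and WRKY53 is in the set. Of 6 class III peroxidases matched by name, 1 was called lower at 3 h, and 1 lower and 1 higher at 24 h. With the combined hormones and with ABA+SA 1 was called lower each. PRX71 is the one of these 6 in the set, and any peroxidase gene listed by locus number only would not be counted. The lists of MYB factors (2 matched), glycosyltransferases (48) and proteases (59) hold MYBC1, UGT72E1 and SCPL34. For glycosyltransferases 3 were called lower and 4 higher with ABA at 3 h, 2 lower and 11 higher at 24 h, and 5 lower and 13 higher with the combined hormones. In these 3 contrasts the share of glycosyltransferases called lower was smaller than that over all probe sets. The share called higher was larger at 24 h and with the combined hormones, and similar with ABA at 3 h. Of the MYB factors 2 were called lower with ABA at 3 h, 0 at 24 h and 1 with the combined hormones. Of the proteases 6 were called lower and 3 higher with ABA at 3 h, 8 lower and 4 higher at 24 h, and 9 lower and 7 higher with the combined hormones. Since the genes were chosen on these contrasts, the list counts describe the arrays and lend the set no support.

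The genes outside the set with the profile most like the mean of the 98 over the 12 group means were AT3G27520 (r = 0.960), AT3G57830 (r = 0.959), AT5G17820 (r = 0.942) and AT4G29090 (r = 0.940). AT1G19600, AT1G33770, AT5G19930, AT4G15810, AT4G19865 and AT5G64100 followed, with r of 0.926 to 0.939. The 12 groups share culture and arrays, and r is a description. The 98 genes' own r to their mean ran from 0.49 to 0.96 for UGT72E1, with a median of 0.80.

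The only test independent of the rule asked whether ABA+JA differed from JA at 24 h. With all 4 arrays the test called 0 of the 98 genes and 0 of 22746 probe sets in either direction (limma, adjusted p under 0.05, so the background is 0%). At an unadjusted p under 0.05, 8 of the genes were lower and 0 higher, against 414 (1.82%) and 331 (1.46%) of all probe sets. By mean level 82 of the 98 were lower, against 51.6% of all probe sets, and the median was -0.39 (quartiles -0.76 and -0.11), against -0.01 over all probe sets. The mean was at least 2-fold lower in 10 genes (0.791% of all probe sets). For 20 genes both ABA+JA arrays lay below both JA arrays (13.8% of all probe sets), and for 0 both lay above (11.5%).

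The 2 ABA+JA arrays differed. Replicate 1 was below both JA arrays for 28 genes (29.7% of all probe sets) and above both for 30 (29.6%), with a median against the JA mean of 0.01. Replicate 2 was below both for 72 genes (33.1%) and above both for 3 (28.3%), with a median of -0.80, and 38 genes were at least 2-fold lower (2.27%). Array by array, the median was 0.03 for replicate 1 minus JA replicate 1 and -0.10 minus JA replicate 2. It was -0.85 for replicate 2 minus JA replicate 1 and -0.77 minus JA replicate 2. Replicate 1 is the array that was close to JA replicate 1 over all probe sets, and on which AT3G02480 was at the level of the JA arrays. The part of that array in the result was not tested beyond the values with and without it.

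**Figure D4:**
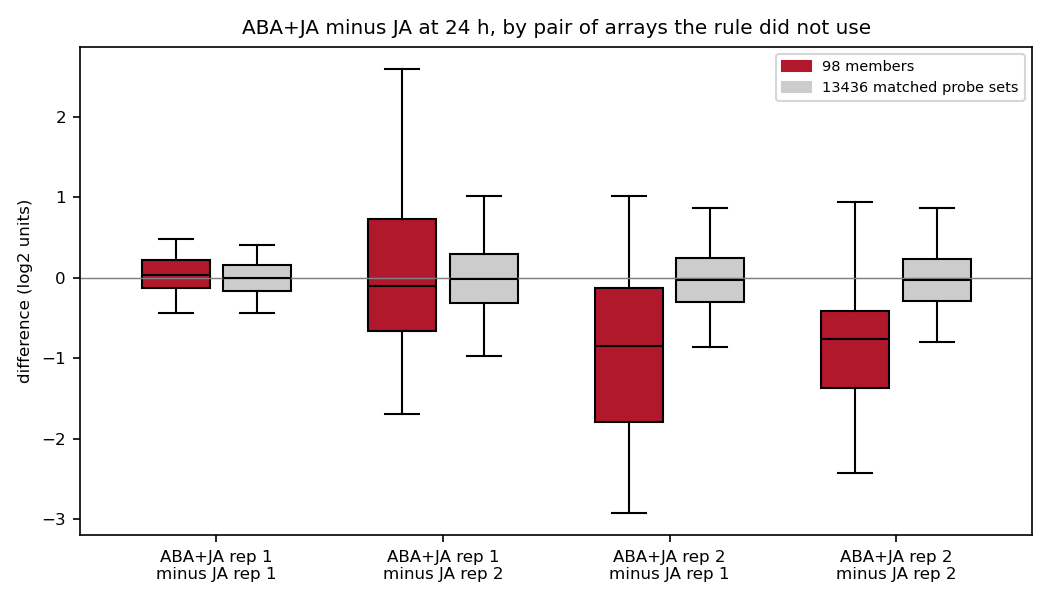
Difference in log2 level between 1 ABA+JA array and 1 JA array at 24 h, for each of the 4 pairs of arrays, over the 98 genes (red) and all matched probe sets (grey). Boxes span the quartiles, black lines are medians and whiskers run over the 5th to 95th percentiles. The medians of the genes are 0.03 and -0.10 with ABA+JA replicate 1, and -0.85 and -0.77 with replicate 2.

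Without replicate 1 of ABA+JA, with the lone array assumed to vary like the other groups, 7 of the 98 genes were called lower (limma), against 42 (0.185%) of all probe sets lower and 102 (0.448%) higher. They were AT5G38710 (-2.78 ± 0.41 SE, adjusted p = 0.0024), AT5G20400 (-2.67 ± 0.42, adjusted p = 0.00403) and AT5G45500 (-1.62 ± 0.29, adjusted p = 0.0126). AT1G14210 (-2.38 ± 0.46) and AT3G04210 (-1.85 ± 0.36) both had a limma adjusted p of 0.0221. PRX71 (-2.38 ± 0.48, limma adjusted p = 0.0273) and AT1G49310 (-1.73 ± 0.38, limma adjusted p = 0.0485) completed them. AT5G20400 had 6.33 and 3.92 with ABA+JA, against 6.20 and 7.0 with JA, and AT1G14210 had 8.37 and 6.51, against 8.44 and 9.33. Both JA arrays were far above replicate 2 in each case. Without replicate 1 of both groups 5 of the genes were called lower (limma; 48 of all probe sets, or 0.211%, were lower and 89, or 0.391%, higher), and 4 of them, AT1G14210, AT3G04210, AT5G38710 and AT5G20400, are among the 7. This alternative was chosen after seeing the data.

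With all 4 arrays the genes lowest in ABA+JA minus JA were LCR69 (-1.78 ± 1.58 SE), AT2G19970 (-1.52 ± 0.84), AT5G20400 (-1.47 ± 0.53) and AT1G14210 (-1.45 ± 0.49), followed by AT3G22570 (-1.25 ± 0.63), SUFE2 (-1.10 ± 0.59), AT1G16640 (-1.05 ± 0.37) and AT3G50010 (-1.04 ± 0.49). None passed the test (limma adjusted p = 1 for each). LCR69 had 8.51 and 7.01 with ABA+JA, against 8.45 and 10.62 with JA, so its JA arrays differ by more than 2 log2 units. The highest were AT5G17350 (0.91 ± 1.74), AT2G41250 (0.59 ± 0.66), AT2G44380 (0.53 ± 0.96), AT1G33760 (0.51 ± 2.18), AT5G61620 (0.47 ± 0.98), AT3G10930 (0.33 ± 1.41), AT4G20000 (0.31 ± 0.76) and AT2G24550 (0.20 ± 0.56). Each is smaller than its standard error. AT5G17350 had 6.45 and 8.60 with ABA+JA, against 6.60 and 6.64 with JA. Across the 98 genes the largest difference of the rule and the difference with JA had a Spearman rho of 0.27, against 0.22 over all matched probe sets; genes share the arrays, and no p is given.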

How the data were processed

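The authors deposited log2 values made with RMA, per the submitters' processing notes; the version and genome build are not given in the sources used here. The scale was read from the range, 1.77 to 13.91 with 0 missing values. Probe sets were named through a probe to gene table and RefSeq names (assembly TAIR10.1, names and neighbour relations only). Of 22746 probe sets 13436 matched 1 annotated gene, 77 a gene outside it, 503 several and 8730 none. Arrays were grouped by source name into 12 groups. One model of group means was fitted to all 26 arrays (limma 3.58.1, statmod 1.5.0, R 4.3.3, eBayes) with Benjamini-Hochberg adjustment over all probe sets. The model was tested on simulated data. The number of arrays limits the precision. The labels do not say that replicates are separate cultures, so p-values measure the spread between arrays only. The members and gene lists were chosen with earlier results of these data known. Named genes were the first 15 by rank, 5 on each side of the edge, 8 at each end of the ABA+JA contrast and those on a list; other genes, the 16 annotated ones included, were chosen after values were seen. Promoter motifs could not be run, since no promoter sequences were used here.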

Additional observations from a re-analysis of the deposited data

How the results depend on the processing

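The ABA+JA minus JA contrast at 24 h depended on which of its 4 arrays were kept, replicate 1 of ABA+JA among them. In both of its groups the replicates were far apart. Leaving out each of its 4 arrays in turn gave 0 to 7 genes called lower (limma), a median of the 98 genes from -0.80 to 0.0067, 0 to 42 of all probe sets lower and 0 to 102 higher. The lowest median was without ABA+JA replicate 1, and without ABA+JA replicate 2 the sign turned, to 0.0067, with 0 calls. Without JA replicate 1, 35 probe sets were called lower and 32 higher, none of them among the 98 genes. With replicate 1 of both groups left out, an alternative chosen after seeing the data, 5 genes, 48 probe sets lower and 89 higher were called. The 4 arrays alone, a trended robust prior, a replicate block, a filter on dim probe sets, quantile scaling, array weights and averaged ABA replicates at 3 h each gave 0 calls, with medians of -0.39 to -0.41. With the replicate block 0 genes were called and the count at unadjusted p under 0.05 was 500 lower, 7 of them among the 98. Same-numbered arrays deviated together (r = 0.533) but 2 pairs do not show that the numbers pair the samples. Which genes belong to the set also moved: median in place of mean kept 88, averaged ABA replicates 95, quantile scaling 86, each combination against its own hormone by title 87 and by source name 75. Promoter motifs were not run. The small number of arrays per group, 2 or 3, limits the precision of every difference.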

Other observations

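Probe sets without 1 matched gene were outside the rule. Of 9310 such probe sets, 100 also had a largest difference at or below that of the last of the 98 genes, the lowest at -2.50. With ABA+JA against JA at 24 h, 87 of these were lower, with a median of -0.46. Over all probe sets 51.6% were lower, with a median of -0.01. Both ABA+JA arrays entered these means, and the count was not made without replicate 1. The 100 probe sets carry no gene name here.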
